A study of Mus musculus with 12 samples.

Results

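Messenger RNA of the cytosolic HSP90 chaperones and 6 of their cochaperones was described in fasted livers of mice that lack SIRT4, a mitochondrial sirtuin, and of their wild-type littermates. The 8 genes were Hsp90aa1, Hsp90ab1, Stip1, Fkbp4, Ahsa1, Cacybp, Chordc1 and Ptges3, out of 17858 genes that had a probe set of their own. They were listed by symbol, and every probe set whose only gene number was that of a listed gene was taken, which gave 18 of 45037 probe sets. The genes were chosen by their measured KO over WT intensity differences, which were known when the list was made, so the genotype differences of these genes are given as a description, with no weight as evidence.

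The animals were 12 male littermates of the 129SV strain, 7 to 8 months old and fasted for 16 h, of which 6 were Sirt4 KO and 6 were WT. All animals of both groups had been fasted, and no fed group was analysed here. RNA of each liver was put on 1 Affymetrix Mouse Genome 430 2.0 array, an oligonucleotide array that measures many genes with several probe sets, so that 1 array stands for 1 animal. The labels give neither the allele nor the part of Sirt4 that it removes. The values are the authors' intensities on a linear scale, and differences are given as log2 fold changes of intensity + 50, which understate the change of dim probe sets.

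HSP90 is an abundant ATP-driven chaperone of the cytosol that holds steroid receptors, the aryl hydrocarbon receptor and many kinases in a form able to bind ligand or be activated. Clients reach it from HSP70 through an adaptor, and cochaperones then pace its ATP cycle. Many of these genes are targets of HSF1, the transcription factor that binds heat shock elements after heat or proteotoxic stress. In liver the glucocorticoid receptor, a classical client, drives part of the response to fasting.

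Sirt4 was at 104 ± 16.4 in KO livers and 172 ± 14.5 in WT livers (intensity, SD, n = 6 each), with no overlap and a log2 fold change of -0.53 (limma adjusted p = 0.0534). Whether its probe set lies in the deleted part is not known, so this checks the genotype labels only in part. Array medians lay between 36.6 and 38.69, and array pairs correlated at 0.988 to 0.994. All 15 hepatocyte markers had a mean intensity of 100 or more. Title numbers of the arrays fell into a 7200 series, with 5 KO and 2 WT animals, and a 7500 series, with 1 KO and 4 WT animals, a number with no stated meaning. The titles of KO replicates 1, 4 and 6 also end in a suffix of unknown meaning.

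Heat shock elements are built of inverted repeats of GAA, and the promoters of the genes were searched for them because heat shock genes were among those whose levels varied most like those of the 8. RefSeq promoters of the build GRCm38.p6 were used, from 250 bases before to 50 bases after each listed start. Of the 8 genes, 6 matched an entry: Stip1, Fkbp4, Ahsa1, Cacybp, Chordc1 and Ptges3. The Ahsa1 entry (chr12:87266478-87266777, plus strand) lay wholly inside the gene, which begins at 87266415. The bases before that position were therefore not searched for Ahsa1. The longer motif was GAANNTTCNNGAA or its reverse complement TTCNNGAANNTTC, with 3 units, and the shorter was GAANNTTC or TTCNNGAA, with 2 units, each its own reverse complement and contained in the longer one. The longer motif stood in 198 of 32851 promoters (0.603%) and the shorter in 4946 (15.1%). Among the 6 genes the longer motif stood in the promoter of Chordc1, as 3 overlapping matches that begin 4 bases before the start and at positions 2 and 7 after it. The shorter motif stood in Chordc1 and in Fkbp4, where its 1 match begins 151 bases before the start. The promoters of both are printed with the matched letters in capitals, beside that of Cacybp, which held no match, and that of Hsph1, the heat shock gene whose level followed the 8 most closely. They lie at chr9:18292017-18292316 (plus strand) for Chordc1, chr6:128438607-128438906 (minus strand) for Fkbp4, chr1:160212843-160213142 (minus strand) for Cacybp and chr5:149636266-149636565 (minus strand) for Hsph1, and are written in the direction of transcription.
Chordc1: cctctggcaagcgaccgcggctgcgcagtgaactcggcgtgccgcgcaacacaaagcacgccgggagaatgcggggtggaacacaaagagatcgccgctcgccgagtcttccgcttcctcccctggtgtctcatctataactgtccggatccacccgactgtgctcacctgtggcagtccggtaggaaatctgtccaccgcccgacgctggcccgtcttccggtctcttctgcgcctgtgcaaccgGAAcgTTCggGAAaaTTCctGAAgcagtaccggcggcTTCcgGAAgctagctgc
Fkbp4: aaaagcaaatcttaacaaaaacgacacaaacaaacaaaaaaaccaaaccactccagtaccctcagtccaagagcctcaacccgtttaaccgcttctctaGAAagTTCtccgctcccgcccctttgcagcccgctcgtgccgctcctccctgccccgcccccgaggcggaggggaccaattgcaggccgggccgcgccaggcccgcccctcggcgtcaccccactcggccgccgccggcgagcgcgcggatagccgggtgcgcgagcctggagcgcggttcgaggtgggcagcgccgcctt
Cacybp: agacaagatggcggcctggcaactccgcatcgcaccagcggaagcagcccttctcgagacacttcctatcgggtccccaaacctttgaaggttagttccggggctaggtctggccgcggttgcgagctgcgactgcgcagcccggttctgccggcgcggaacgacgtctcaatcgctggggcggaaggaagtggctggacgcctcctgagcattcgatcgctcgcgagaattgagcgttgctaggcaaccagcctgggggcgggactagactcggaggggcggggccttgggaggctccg
Hsph1: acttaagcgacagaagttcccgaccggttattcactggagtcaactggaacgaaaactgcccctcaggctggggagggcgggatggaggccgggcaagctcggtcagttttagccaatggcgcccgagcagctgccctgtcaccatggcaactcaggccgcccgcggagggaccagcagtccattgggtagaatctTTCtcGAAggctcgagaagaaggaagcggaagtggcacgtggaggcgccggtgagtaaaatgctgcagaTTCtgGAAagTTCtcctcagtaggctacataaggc
The capitals of Chordc1 form 1 array of alternating GAA and TTC around the start and 1 separate pair further in. A match is a description of these letters and no evidence of binding.

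Across the 8 genes, 7 had a higher mean in KO than in WT livers by the probe set with the highest mean intensity, and Ptges3 was the exception. Over all genes, 50.4% lay above 0, over all probe sets 50.2%, and over the 8142 genes with a mean of 100 or more it was 58.4%. The median log2 fold change of the 8 was 0.20, with values from -0.046 to 0.23, against a median of 0.00081 over all genes and 0.014 over those of 100 or more. By limma, 0 of the 18 probe sets had an adjusted p under 0.05 (0.831 to 0.985), as did 0 of all 45037 (0%). At an unadjusted p under 0.05 there were 8 of the 18, where all probe sets gave 5.89% (2.98% with KO higher and 2.9% with KO lower), and since that contrast chose the genes nothing is read from the count. The count was 1 without WT replicate 1, WT replicate 6 or KO replicate 2, 2 without KO replicate 4, 5 without KO replicate 3 or 6, 3 with an offset of 16 and 0 without the 3 KO animals whose titles carry the suffix. No filter on low values was applied, and 13 of the 18 probe sets, at least 1 for each gene, had a mean of 100 or more. KO and WT animals overlapped for all 18 probe sets, whereas they did not overlap, with KO higher, for 0.142% of all probe sets.

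Hsp90aa1 encodes the stress-inducible cytosolic HSP90. Its probe set with the highest mean (1438902_a_at) had a lowest, median and highest intensity of 5602, 6527 and 7285 in KO livers, against 4648, 5827 and 6475 in WT livers. KO replicates 2, 4 and 6 lay above every WT animal, WT replicates 1 and 6 lay below every KO animal, and the remaining animals of both genotypes shared the range between. The means were 6509 ± 684 in KO and 5739 ± 711 in WT livers (SD, n = 6 each), a log2 fold change of 0.18 (SE 0.085). Of the 8142 genes with a mean of 100 or more, 3.27% had a log2 fold change at or above that value. A second probe set (1437497_a_at) gave 3805 ± 538 in KO and 3186 ± 481 in WT livers (0.25, SE 0.11). A further one (1426645_at) gave 2930 ± 514 in KO and 2331 ± 477 in WT livers (0.33, SE 0.13). The deviations of both from their genotype means followed those of the first over the 12 animals, at r = 0.910 for 1437497_a_at and r = 0.973 for 1426645_at. The remaining probe set (1455078_at), less bright but with a mean above 100, read 201 ± 21.5 in KO and 192 ± 26.0 in WT livers (0.053, SE 0.075). It followed the first less closely (r = 0.563). A pair of probe sets that list Hsp90aa1 with another gene number were left out of the 18, and were at the low end of the intensities. The first read 10.8 ± 3.70 in KO and 7.42 ± 3.84 in WT livers, and the other 6.55 ± 3.48 in KO and 2.90 ± 1.33 in WT livers.

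Hsp90ab1 encodes the constitutive cytosolic HSP90. Its intensities (1416364_at, lowest, median and highest) were 6246, 6775 and 7295 in KO livers, against 5805, 6302 and 6601 in WT livers. The same 3 KO animals, replicates 2, 4 and 6, lay above every WT animal, and the other 3 KO animals lay among the WT ones. The means were 6775 ± 466 in KO and 6263 ± 278 in WT livers (SD, n = 6 each), a log2 fold change of 0.11 (SE 0.054). Its other probe set (1416365_at) gave 4800 ± 416 in KO and 4315 ± 315 in WT livers (0.15, SE 0.065), with r = 0.855 between the deviations of both. The share of the 8142 genes at or above its log2 fold change was 10.4%.

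**Figure D1:**
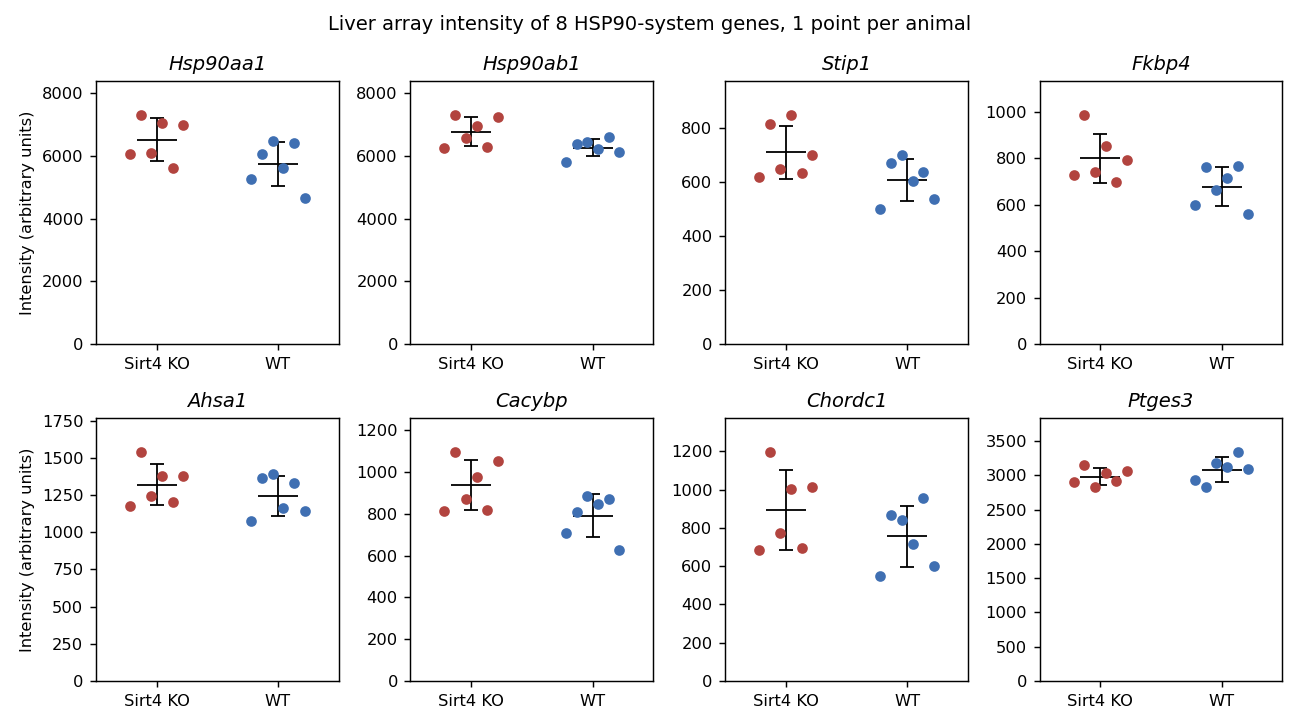
Intensity of the probe set with the highest mean for each of the 8 genes, on a linear axis, with 1 point per animal and a bar at the group mean (SD as error bar), Sirt4 KO left of WT (n = 6 each). KO and WT animals overlapped for every gene, and Ptges3 was the only one whose KO mean (2980) lay below its WT mean (3080).

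Stip1, the adaptor also known as HOP, links HSP70 to HSP90 and hands over clients. Its intensities (1415909_at) were 620.58, 674.75 and 848.52 in KO livers (lowest, median, highest), against 500.23, 621.88 and 700.66 in WT livers. KO replicates 2, 4 and 6 were again above all WT animals, and WT replicates 1, 4 and 6 below all KO animals. The means of 712 ± 98.2 in KO and 609 ± 77.9 in WT livers gave a log2 fold change of 0.21 (SE 0.089), which 2.53% of the 8142 genes reached.

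Fkbp4 encodes FKBP52, an immunophilin that joins steroid receptor complexes with HSP90. Its intensities (1416362_a_at) were 697.16, 766.56 and 984.26 in KO livers (lowest, median, highest), against 561.40, 688.65 and 765.17 in WT livers. KO replicates 2, 4 and 6 were above all WT animals and the other 3 KO animals lay inside the WT range. The means were 799 ± 106 in KO and 678 ± 84.9 in WT livers (0.22, SE 0.087), a value that 2.12% of the 8142 genes reached. Its other 3 probe sets had mean intensities under 100, gave log2 fold changes of -0.057, 0.067 and 0.22, and had r = -0.384 to 0.156 with the first over the animals.

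Ahsa1 encodes AHA1, the activator of the HSP90 ATPase. It differed least among the 7 genes above 0, with intensities (1424147_at) of 1173, 1310.3 and 1538 in KO livers (lowest, median, highest), against 1074, 1246 and 1394 in WT livers. KO replicate 2 was above every WT animal and the others overlapped with them. The means of 1319 ± 138 in KO and 1244 ± 135 in WT livers gave 0.082 (SE 0.077), reached by 17.6% of the 8142 genes, and a dim probe set gave 0.086. The value was 0.038 without KO replicate 2 and 0.042 without WT replicate 1.

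Cacybp, a binding partner of calcyclin and of the ubiquitin ligase SIAH1, carries a domain shared with the HSP90 cochaperone SGT1. Its intensities (1452047_at) were 814.57, 923.79 and 1096 in KO livers (lowest, median, highest), against 625.18, 828.71 and 884.03 in WT livers. KO replicates 2, 4 and 6 were above all WT animals, and WT replicates 1, 2 and 6 were below all KO animals. The means were 938 ± 121 in KO and 790.3 ± 103 in WT livers, and its log2 fold change of 0.23 (SE 0.091) was the highest of the 8 and was reached by 1.81% of the 8142 genes.

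Chordc1 encodes CHP-1 (morgana), which binds HSP90 through its CHORD and CS domains. The intensities of the gene with the 3 longer motif matches (1460645_at) were 685.45, 889.44 and 1197 in KO livers (lowest, median, highest), against 549.60, 778.53 and 958.67 in WT livers. Here too KO replicates 2, 4 and 6 exceeded all WT animals, and WT replicates 1 and 6 were below all KO animals. The means of 894 ± 207 in KO and 756 ± 161 in WT livers gave 0.23 with the largest error of the 18 probe sets (SE 0.14), since animals differed widely within both genotypes. Of the 8142 genes 2.06% reached that value, and a dim probe set gave 0.11. The value was 0.139 without KO replicate 2 and 0.145 without WT replicate 1.

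Ptges3 encodes the cochaperone that locks HSP90 in its closed, ATP-bound state, first named as a prostaglandin E synthase. Its intensities (1417998_at) were 2828, 2971 and 3151 in KO livers (lowest, median, highest), against 2829, 3102 and 3338 in WT livers. The KO mean of 2980 ± 119 lay below the WT mean of 3080 ± 179, at a log2 fold change of -0.046 (SE 0.050), and 80% of the 8142 genes had a higher or equal value. Its other probe set gave 2718 ± 124 in KO and 2682 ± 124 in WT livers (0.019, SE 0.049), so the sign for Ptges3 differed between its probe sets. With the 2 title series fitted as a term the first probe set stood at 0.0052, and within the 7200 series at 0.039. Without WT replicate 2 it stood at -0.070 and without WT replicate 5 at -0.023.

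**Figure D2:**
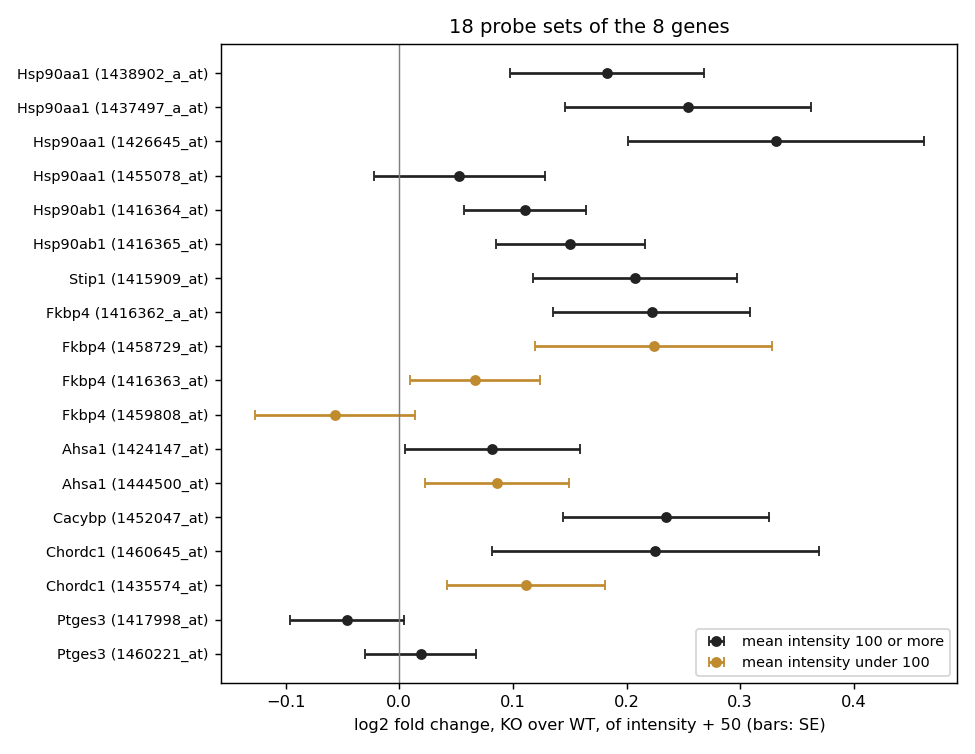
Log2 fold change of intensity + 50, Sirt4 KO over WT, for each of the 18 probe sets, with its SE as error bar and probe sets of a mean intensity under 100 in another colour (n = 6 animals per genotype). Of the 18 points, 16 lie above 0, and the 2 below 0 are 1 of Fkbp4 and 1 of Ptges3.

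The same animals stood high or low gene after gene. Averaged over the 8 genes, each centred on its mean over the 12 animals, KO replicates 2, 4 and 6 stood at 0.29, 0.18 and 0.16 on the log2 scale and KO replicates 1, 3 and 5 at -0.075, -0.017 and -0.083. The WT animals stood at -0.26 and -0.25 for replicates 1 and 6 and between -0.071 and 0.073 for the other 4. KO replicate 2 was among the 3 highest animals for all 8 genes and was the highest for 6. WT replicates 1 and 6 were each among the 3 lowest for 7 genes. By the probe sets with the highest mean, KO animals thus fell into 3 high and 3 low ones with a gap between. This split follows neither the title series nor the title suffix, and it depends on the probe set. KO replicate 3 read 4907 for Hsp90ab1 1416365_at, beside 5015 for replicate 4 and 5000 for replicate 6. For Hsp90aa1 1437497_a_at it read 3931, beside 3948 for replicate 4. In both, 4 KO animals lay above every WT animal, whereas Hsp90aa1 1426645_at had 3 such animals.

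**Figure D3:**
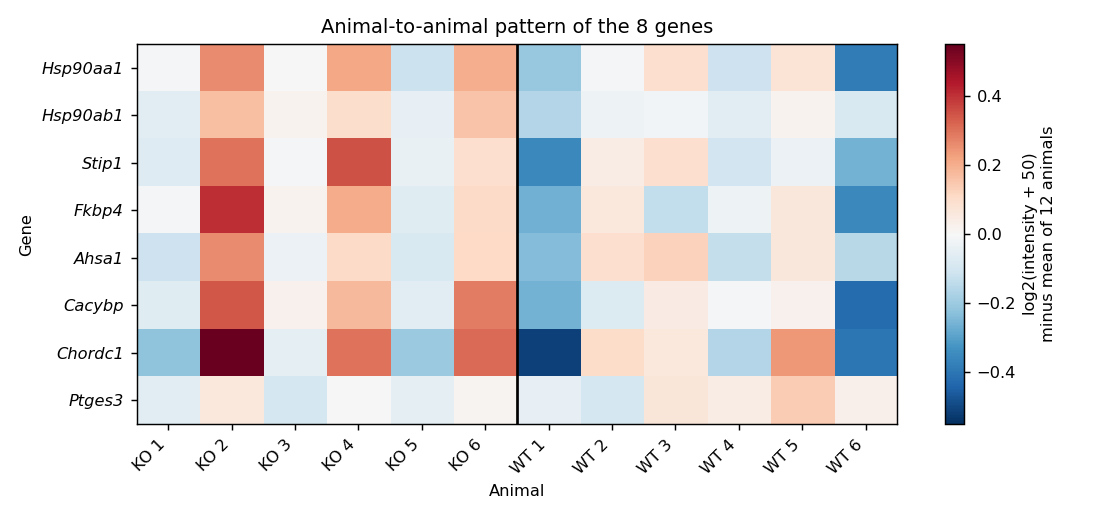
Log2 level of each of the 8 genes in each animal, centred on the gene's mean over the 12 animals, with Sirt4 KO animals left of WT animals. KO replicates 2, 4 and 6 are high and WT replicates 1 and 6 low for nearly every gene, with Ptges3 the least pronounced.

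Deviations from the genotype mean were tested for correlation between genes (28 pairs, 12 animals, permutation of animals within genotype, Benjamini-Hochberg over the 28). The genes were chosen by their genotype differences in these same 12 animals. Animals that carry such a difference together can also make the chosen genes vary together within a genotype. The permutation p-values are therefore not independent of that choice and are given as a description. All 28 correlations were above 0, at a median Pearson r of 0.833 and a median Spearman rho of 0.808, and 22 pairs had an adjusted permutation p under 0.05 (24 by Spearman). The 21 pairs without Ptges3 had r from 0.768 to 0.955 and adjusted permutation p from 0.00028 to 0.00772. Without the 2 animals farthest from the median of the first gene, they kept r from 0.692 to 0.960. Ahsa1 and Chordc1 had the highest r of 0.955 (rho 0.916, permutation p = 9e-05, adjusted 0.00098; 0.918 without the 2 farthest animals). Hsp90ab1 and Chordc1 had r = 0.951 (rho 0.930), with the smallest permutation p that the resamples can give, 1e-05. The HSP90 paralogs Hsp90aa1 and Hsp90ab1 had r = 0.813 (rho 0.811, permutation p = 0.0029, adjusted 0.00507; 0.919 without the 2 farthest). All levels come from the same arrays, so a pair shares whatever differed between arrays. The same test was not run on pairs of other genes, so no background share stands beside the 22 pairs.

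The 7 pairs with Ptges3 had r from 0.424 to 0.638, and 1 of them, with Hsp90ab1, passed (r = 0.638, permutation p = 0.0212, adjusted 0.0270), or 3 by Spearman. These lower values rested on WT replicate 2: without it the 7 pairs ran from 0.754 to 0.918 and all 7 passed. The count was 3 without WT replicate 6 and 0 without WT replicate 5 or KO replicate 2, while the 21 other pairs passed whichever animal was left out. Within KO animals alone the 7 pairs ran from 0.791 to 0.901, with 5 at an exact permutation p under 0.05, and within WT animals from 0.135 to 0.537, with 0. Without WT replicate 2 the WT range was 0.632 to 0.978. It was -0.318 to 0.232 without WT replicate 5 and -0.083 to 0.408 without WT replicate 1, so the WT values moved both ways. A difference between genotypes was not tested. The 21 other pairs ran from 0.778 to 0.993 within KO animals, with 19 at an exact permutation p under 0.05, and from 0.659 to 0.957 within WT animals, with 12.

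**Figure D4:**
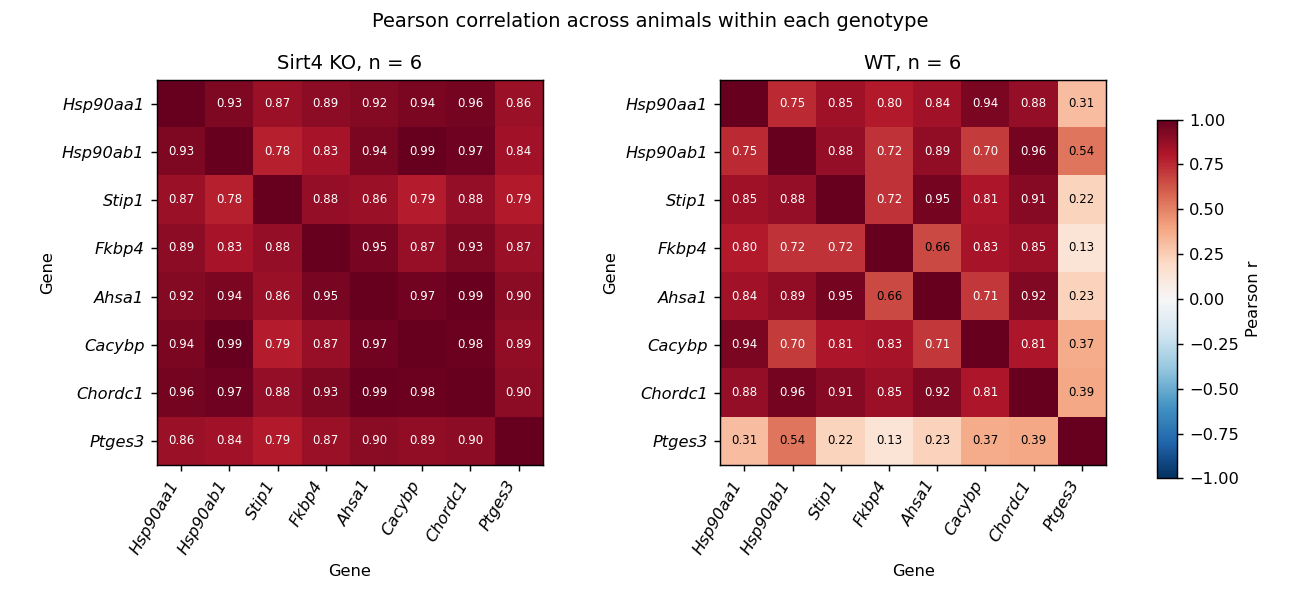
Pearson correlation of log2(intensity + 50) between the 8 genes across animals, within Sirt4 KO (left, n = 6) and within WT (right, n = 6), on a colour scale from -1 to 1. The row of Ptges3 runs from 0.791 to 0.901 in KO and from 0.135 to 0.537 in WT animals. In WT animals it runs from 0.632 to 0.978 without WT replicate 2 and from -0.318 to 0.232 without WT replicate 5.

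Other genes were ranked by the correlation of their deviations with the mean deviation of the 8, over 12 animals and 8134 genes of mean intensity 100 or more. These values are a description, and the median gene stood at 0.041, with 119 genes at 0.8 or more. The 10 most alike were Hsph1 (0.982), Dnaja1 (0.966), Banp (0.962), Ahsa2 (0.962), Mis12 (0.959), Sfrp5 (0.941), Slc10a2 (0.936), Bag3 (0.935), Plk3 (0.926) and Yod1 (0.925). Hsph1 is an HSP70 nucleotide exchange factor of the HSP110 family, Dnaja1 an HSP40 that loads clients on HSP70, Bag3 an HSP70 cochaperone and Ahsa2 the paralog of Ahsa1. Slc10a2, the apical bile acid transporter, and Sfrp5, a secreted WNT antagonist, are no chaperones. Of the 9 with a RefSeq promoter, Hsph1 held the longer motif, in the sequence printed with the members, and Hsph1, Dnaja1 and Bag3 the shorter. Dnaja1 held it in its entry at chr4:40722218-40722517 and not in its other entries. The shares given with the motifs are per promoter (32851 promoters of 27025 genes), and a gene with several entries has more chances to match.

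Lists of related genes, drawn up by function with earlier results of these data known, were set beside the 8. Of the heat shock factors and cytosolic heat shock chaperones, 14 of 15 had a correlation above 0 with the mean of the 8 (median 0.759), and Hsf1 itself was at -0.037. Endoplasmic reticulum chaperones, which serve secretory proteins, were above 0 in 13 of 13 (median 0.731), and subunits of TRiC, the chaperonin that folds actin and tubulin, in 8 of 8 (median 0.695). The other HSP90 paralogs and cochaperones ran from -0.646 (Ttc4) to 0.822 (St13, the HSP70-interacting protein), with a median of 0.206. Client receptors and kinases had a median of -0.109, with 6 of 16 above 0, Nr3c1 (the glucocorticoid receptor) at -0.247, Ahr at 0.015 and Ppara, the receptor that drives fat oxidation in fasting, highest at 0.851.

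**Figure D5:**
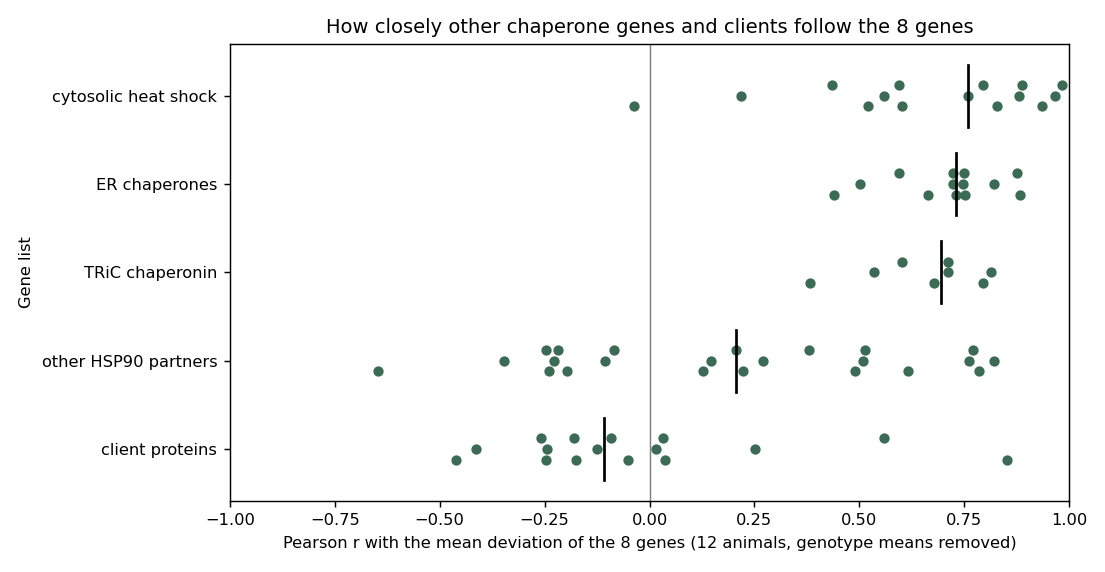
Pearson correlation, over 12 animals with genotype means removed, of each listed gene with the mean deviation of the 8 genes, 1 row per list and 1 point per gene. Heat shock genes (median 0.759) lie to the right and client receptors and kinases (median -0.109) around 0.

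Between genotypes, 0 genes of these lists had a limma adjusted p under 0.05, and the counts at an unadjusted p under 0.05 are given with each. Over all probe sets, 2.98% were higher and 2.9% lower in KO livers at that unadjusted p. Of 24 other HSP90 paralogs and cochaperones 17 were above 0 (median 0.054), with 1 higher (Pih1d1) and 1 lower (Itgb1bp2) at that unadjusted p. The endoplasmic reticulum paralog Hsp90b1 read 6380 ± 481 in KO and 6212 ± 887 in WT livers. The mitochondrial paralog Trap1 read 3657 ± 189 in KO and 3801 ± 327 in WT livers, and Cdc37, the adaptor for kinases, 837 ± 32.9 in KO and 861 ± 35.4 in WT livers. These 3 thus had KO and WT means within 1 SD of each other. Fkbp5, the glucocorticoid-induced relative of Fkbp4, read 603 ± 247 in KO and 479 ± 244 in WT livers.

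Of 17 heat shock factors and chaperones, 14 were above 0 (median 0.11), with 6 higher and 0 lower at an unadjusted p under 0.05: Hspa1a, Hspa1b, Bag3, Dnajb1, Hspb1 and Dnaja1. Over all probe sets 2.98% were higher at that p, and 58.4% of the genes with a mean of 100 or more lay above 0. Within genotypes the 6 had r from 0.759 (Hspb1) to 0.966 (Dnaja1) with the mean of the 8, so they are not separate results. Bag3 read 626 ± 133 in KO and 446 ± 105 in WT livers (log2 fold change 0.45), and Dnajb1, an HSP40, read 1128 ± 287 in KO and 810 ± 155 in WT livers (0.43). Hspa1b, the inducible HSP70, read 6074 ± 1730 in KO and 3600 ± 1608 in WT livers, and shared signal with the probe set of its near-identical copy Hspa1a was not tested, so both may be 1 gene in the count of 6. The mRNA of Hsf1 had a log2 fold change of -0.15 (SE 0.088, mean intensity 121). Activity of the HSF1 protein was not measured, and its part in these differences was not tested. Summed over the list, KO replicates 2, 4 and 6 had 37067, 37969 and 35723 and KO replicates 1, 3 and 5 had 29467, 32263 and 27096. This was the same split of KO animals as for the 8 genes, and it was not particular to this list. Endoplasmic reticulum chaperones summed to 37076, 40422 and 33945 against 32943, 31700 and 29260, in the same order of replicates. Sums of the other HSP90 paralogs and cochaperones and of the hepatocyte markers also split this way. Those of TRiC subunits and of client receptors and kinases did not. Bright genes weigh most in such sums.

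The constitutive HSP70 Hspa8 was measured only by probe sets that list several gene numbers. A pair of them gave log2 fold changes of -0.012 and 0.067. The probe set with 10 gene numbers (1431182_at) read 383 ± 36.4 in KO and 253 ± 44.4 in WT livers, did not overlap between genotypes and had a limma adjusted p of 0.236. It cannot be assigned to Hspa8, and it was called when WT replicate 1 was left out.

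Of the 20 client receptors and kinases, 14 were above 0 (median 0.023), with 3 higher and 2 lower at an unadjusted p under 0.05. Those higher were Ahr (0.26), Ppara (0.26) and Nr1i3, the xenobiotic receptor CAR (0.31), and those lower were Egfr (-0.27) and Esr1 (-0.66). The glucocorticoid receptor Nr3c1 read 579 ± 61.2 in KO and 566 ± 15.1 in WT livers. Endoplasmic reticulum chaperones (median 0.058, 10 of 13 above 0) and TRiC subunits (0.032, 6 of 8) had 0 genes at that unadjusted p.

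Markers of other liver cells are given beside these values. By limma 0 markers of any list had an adjusted p under 0.05, and in bulk tissue fewer cells of a type and less RNA per cell cannot be told apart. Over all probe sets, 5.89% had an unadjusted limma p under 0.05, 2.98% with KO higher and 2.9% with KO lower. Of 15 markers of Kupffer cells and macrophages, 14 had a KO mean below the WT mean, 12 of them at an unadjusted limma p under 0.05, with summed intensities of 3776 to 6413 in KO and 4450 to 8187 in WT livers. B cell markers had a lower KO mean in 9 of 9, 3 at that unadjusted p, with sums of 371 to 446 in KO and 484 to 706 in WT livers, at mean intensities mostly under 100. The sums of KO and WT animals overlapped for the Kupffer cell list and not for the B cell list. No background share was computed for the overlap of such sums. Neutrophil markers had a lower KO mean in 8 of 9, 1 at that unadjusted p, with sums of 341 to 477 in KO and 349 to 1108 in WT livers. Stellate cell and fibroblast markers had a lower KO mean in 8 of 11, with 3 lower and 1 higher at that unadjusted p, and sums of 5125 to 5935 in KO and 5314 to 6120 in WT livers. Sinusoidal endothelial markers had a higher KO mean in 8 of 9, 1 at that unadjusted p, with sums of 3609 to 3986 in KO and 2880 to 4019 in WT livers. The sums of these 3 lists overlapped between genotypes. Acute phase genes had a lower KO mean in 10 of 11, 1 at that unadjusted p, with sums of 33852 to 59864 in KO and 31336 to 80453 in WT livers. Hepatocyte markers had a higher KO mean in 8 of 15, 0 at that unadjusted p, with sums of 196008 to 204536 in KO and 194988 to 208330 in WT livers, and 0 markers of any list were at 0. Log2 fold changes were above 0 for 5 of 10 T and NK cell, 3 of 6 cholangiocyte and 5 of 6 erythroid markers, 0 at that unadjusted p. Within genotypes Hsp90aa1 had r = -0.00025 with the Kupffer cell list (permutation p = 0.999), but 0.493 without the 2 farthest animals, and 0.129 with the hepatocyte list, but 0.747 without them. None of 11 lists passed (adjusted permutation p 0.127 to 0.999). The closest was the endoplasmic reticulum chaperone list (r = 0.750, rho 0.762, permutation p = 0.0115, adjusted 0.127; 0.788 without the 2 farthest animals). Next in size was the stellate cell and fibroblast list (r = -0.619, rho -0.517, permutation p = 0.0524, adjusted 0.288). Its r was -0.711 without the 2 farthest animals. The part of these cells in the genotype difference was not tested.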

How the data were processed

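Livers of 12 mice were measured on 1 array each. The authors deposited intensities on a linear scale in a fold-change table and a value table that hold the same values. The submitters' processing notes list RMA, without a version. How the linear values, which reach 0, relate to that step is not known, and they were used as linear intensities. Of 45037 probe sets, 36239 had 1 named gene number, 1261 had several and were not named, and 689 values were listed at 0. The symbols at the right of the authors' deposited table are out of row order, so each row's own gene number was used, named through RefSeq. The members and lists were chosen with earlier results of these data known.

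Log2(intensity + 50) was fitted with limma 3.58.1 (lmFit, eBayes) in R 4.3.3, two-sided, with Benjamini-Hochberg adjustment over all 45037 probe sets and a threshold of 0.05. Where a gene had several probe sets, that with the highest mean served for lists and correlations. Correlations used deviations from genotype means and 100000 resamples in Python 3.11.15. Offsets, a floor, centring, quantile normalization, filters, title series and single animals left out were tried. Named genes were the 8, Sirt4, listed genes by role and the 10 genes most like the 8. The number of arrays limits precision, and limma p-values set the KO minus WT difference against the spread between animals. The fit was tested on simulated data.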

Additional observations from a re-analysis of the deposited data

Results flagged for a closer look

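An animal apart from the other 5 of its genotype was looked for in 36 groups, the 18 probe sets in each genotype, by the gap to the nearest animal over the group's range, against Dixon's 95% critical value. There were 2 such groups, and chance gives about 1 in 20. Both were WT groups of dim Fkbp4 probe sets. WT replicate 6 read 101.2 for 1458729_at, against 49.36 to 64.58 in the other 5 WT animals (gap over range 0.706). WT replicate 5 read 23.22 for 1416363_at, against 31.19 to 34.8 (0.688).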

How the results depend on the processing

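The number of member probe sets called stayed at 0 under 12 alternatives and under leaving out each of the 12 animals, and 7 of 8 genes lay above 0 in all of these but 2: with title series as a fitted term and in the 7200 series alone it was 8. The median log2 fold change of the 8 ran from 0.14 to 0.23 on leaving out 1 animal and from 0.16 to 0.22 under the others. Over all probe sets, 1 was called in place of 0 with quantile normalization, a mean of 100 or more, 1 probe set per gene and without the suffixed KO titles (Sirt4 in each), and leaving out 1 animal gave 0 to 1. Centring arrays on their medians turned the unadjusted split of 1343 higher and 1308 lower into 1624 and 1022. Pairs called ran from 21 to 28 on leaving out 1 animal, the change lying in the 7 pairs with Ptges3 (28 without WT replicate 2), and from 21 to 24 otherwise. Of 417 member fold changes recomputed, 7 changed sign, among them the first Ptges3 probe set to 0.0052 and 0.039 with the 2 title series settings. The cause was not tested. No paired analysis was possible because the labels give no replicate numbers shared between genotypes.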
